A study of Mus musculus with 40 samples.

Results

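The epidermal growth factor (EGF) family was followed through 10 genes taken by name. They were 6 ligands (Egf, Hbegf, Areg, Ereg, Tgfa and Btc) and 4 receptors (Egfr, Erbb2, Erbb3 and Erbb4), out of 55866 gene names in the largest table, and all 10 were found in each of the 3 count tables. The kidneys were those of C57bl/6-wt mice whose renal blood supply had been stopped and released, a model of acute kidney injury called ischaemia-reperfusion injury (IRI). The temporal table held Control kidneys labelled with no treatment and IRI kidneys at 6, 24, 48 and 72 h of reperfusion. The therapy table held IRI kidneys that received mesenchymal stromal cells (MSCs) of human origin, either from bone marrow (BM-MSC) or from umbilical cord (UC-MSC), IRI kidneys without cells (AKI) and the same Control libraries. In both MSC groups the cells were injected as blood flow returned, and the labels give no time of sampling for them. The sham table held kidneys taken 24 h after surgery without ischaemia (sham 24 h) and kidneys without surgery (sham control), and a treatment tag on sham 24 h reads IRI although its source label states that none was done. Every group had 4 libraries, and neither the age nor the sex of the animals is given.

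The labels do not say that the libraries of a group came from separate animals, so p-values rest on the spread between libraries alone, and that spread may be technical. The AKI group carries the time of 6 h and the same library names as the IRI 6 h group, yet the counts differ between them. Counts were assigned to mouse genes, so reads of the injected human cells that match mouse genes cannot be told apart from mouse reads.

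EGF family ligands are made as membrane-bound precursors and are cut free by surface proteases. The 6 ligands followed here bind EGFR, ERBB4 or both, which pair with one another or with ERBB2, a receptor without a known ligand, and ERBB3, a receptor with little kinase activity of its own. The paired receptors activate the Ras-ERK pathway, which drives proliferation and survival. In kidney, Egf is made mainly in the thick ascending limb and the distal convoluted tubule, while Hbegf and Areg are known as ligands that injured tubules induce.

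The promoter sequences of Egf and Areg are shown because these ligands moved furthest in opposite directions at 24 h. Each is the 250 bases before an annotated start (RefSeq, GRCm38.p6), read 5′ to 3′ on the gene's own strand. Areg lies on the plus strand at chr5:91139349-91139598 and Egf on the minus strand at chr3:129755323-129755572. Capitals mark matches, on either strand, to the cAMP response element (TGACGTCA), the AP-1 site (TGANTCA) or the TATA box (TATAAA).
Areg: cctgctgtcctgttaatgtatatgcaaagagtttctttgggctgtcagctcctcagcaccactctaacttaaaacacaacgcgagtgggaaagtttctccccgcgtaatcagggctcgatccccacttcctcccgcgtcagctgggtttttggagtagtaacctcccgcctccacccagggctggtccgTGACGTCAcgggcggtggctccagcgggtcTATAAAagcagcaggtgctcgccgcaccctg
Egf: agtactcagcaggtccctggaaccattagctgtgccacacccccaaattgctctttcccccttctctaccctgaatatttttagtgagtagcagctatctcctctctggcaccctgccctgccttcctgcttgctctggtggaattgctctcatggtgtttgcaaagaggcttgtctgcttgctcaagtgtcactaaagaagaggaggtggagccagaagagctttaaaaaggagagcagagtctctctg
The Areg window held 1 cAMP response element 61 bases before the start and 1 TATA box 31 bases before it. The Egf window held no match to these letters. The window of another annotated Egf start, at chr3:129725087-129725336 and not shown, held none either. Of 32851 promoter windows of the same length, 1.5% held the cAMP response element, 6.7% the AP-1 site and 12.4% the TATA box. A match describes the letters and is not evidence of binding.

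Over the names kept for the fits, library depth ranged from 4656775 to 17589825 counts in the temporal table, with the 72 h libraries shallowest (4656775 to 5383784). It ranged from 13007459 to 18538072 in the therapy table and from 26601247 to 37097091 in the sham table. Over all names, temporal Control libraries held 18434624 to 20341192 counts, 48 h libraries 7775204 to 10013035 and 72 h libraries 7800214 to 9211019. The names left out thus held a larger share of reads at 48 and 72 h than in Control. IRI 72 h library 4 kept 4656775 of 7909738 counts and Control library 1 kept 16429910 of 20341192. All 10 proximal tubule markers were present in every group, as were all 10 markers of the thick ascending limb. The libraries of the 24, 48 and 72 h groups stood in another joined part of the table than Control and 6 h, and AKI in another than the remaining therapy groups. Differences across these parts cannot be told apart from how the parts were made. Mitochondrial ribosomal RNA took 0.151% to 0.177% of counts in Control, 0.205% to 0.444% at 6 h, 1.22% to 1.36% at 24 h, 1.78% to 2.56% at 48 h and 1.75% to 1.82% at 72 h. In the therapy table it took 0.848% to 1.866% in AKI, 0.1335% to 0.237% in BM-MSC, 0.2159% to 0.3982% in UC-MSC and 0.1525% to 0.1797% in Control. It took 0.6331% to 0.753% in sham 24 h and 0.2734% to 0.4884% in sham control. Its part in the results, those with IRI 6 h in place of AKI included, was not tested. AKI library 1 stood apart: its log2 values correlated with those of another AKI library at an r as low as 0.821, while the others reached 0.982 among themselves. IRI 6 h library 1 had an r of 0.91 to 0.932 with its group, while the others there reached 0.992. Libraries of the late groups were as unlike one another, with an r of 0.844 to 0.898 within 48 h and 0.812 to 0.847 within 72 h. Results that rest on AKI library 1 are given with and without it.

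Over the time course the family split. Egf and Erbb3 were lower than Control at every time, Hbegf was higher at every time, Areg was higher at 24 h, and from 48 h Erbb2 was higher while Egfr was lower. A gene counted as called when the two-sided quasi-likelihood test of edgeR, which gave every adjusted p below, fell under 0.05 after Benjamini-Hochberg adjustment. Of the 9 members with enough counts to test, 3 were called at 6 h (33.3%), against 18.8% of all 16659 genes tested (10.3% higher and 8.52% lower). At 24 h 4 were called (44.4%), against 42.0% of all genes (21.8% higher and 20.2% lower). At 48 h 5 were called (55.6%), against 53.7% (26.9% higher and 26.8% lower). At 72 h 7 were called (77.8%), against 56.3% (26.7% higher and 29.6% lower). The members' share thus stood close to that of all genes at 24 and 48 h, and the description below rests on single genes and their sizes. At 6 h the count was 5 with DESeq2 and 6 when only the 6 h and Control libraries were fitted, with Areg and Erbb4 added in both.

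Egf, the most abundant ligand of the uninjured kidney, was lost within hours and was lowest at 24 h. In CPM, the read count scaled to the size of its library by TMM, it had 1088, 1119, 1370 and 1130 in the Control libraries and 59.0, 112, 121 and 149 at 6 h. It had 12.4, 10.8, 12.2 and 9.49 CPM at 24 h, then 48.7, 38.1, 19.1 and 35.2 CPM at 48 h and 37.0, 39.2, 25.5 and 59.4 CPM at 72 h. No injured library came near the lowest Control library, and the 24 h libraries lay below all libraries of the other times. The log2 fold change against Control was −3.42 ± 0.28 at 6 h (± SE, adjusted p = 1.6e-08) and −6.71 ± 0.33 at 24 h (adjusted p = 3.8e-12). It was −5.06 ± 0.30 at 48 h (adjusted p = 7.7e-12) and −4.87 ± 0.30 at 72 h (adjusted p = 9.7e-12). Between neighbouring times, Egf fell again at 24 h against 6 h (−3.30), rose in part at 48 h against 24 h (1.65, adjusted p = 0.00021) and did not pass at 72 h against 48 h (0.19). At 24 h, 14 of the 16659 genes tested had a lower log2 fold change than Egf.

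**Figure D1:**
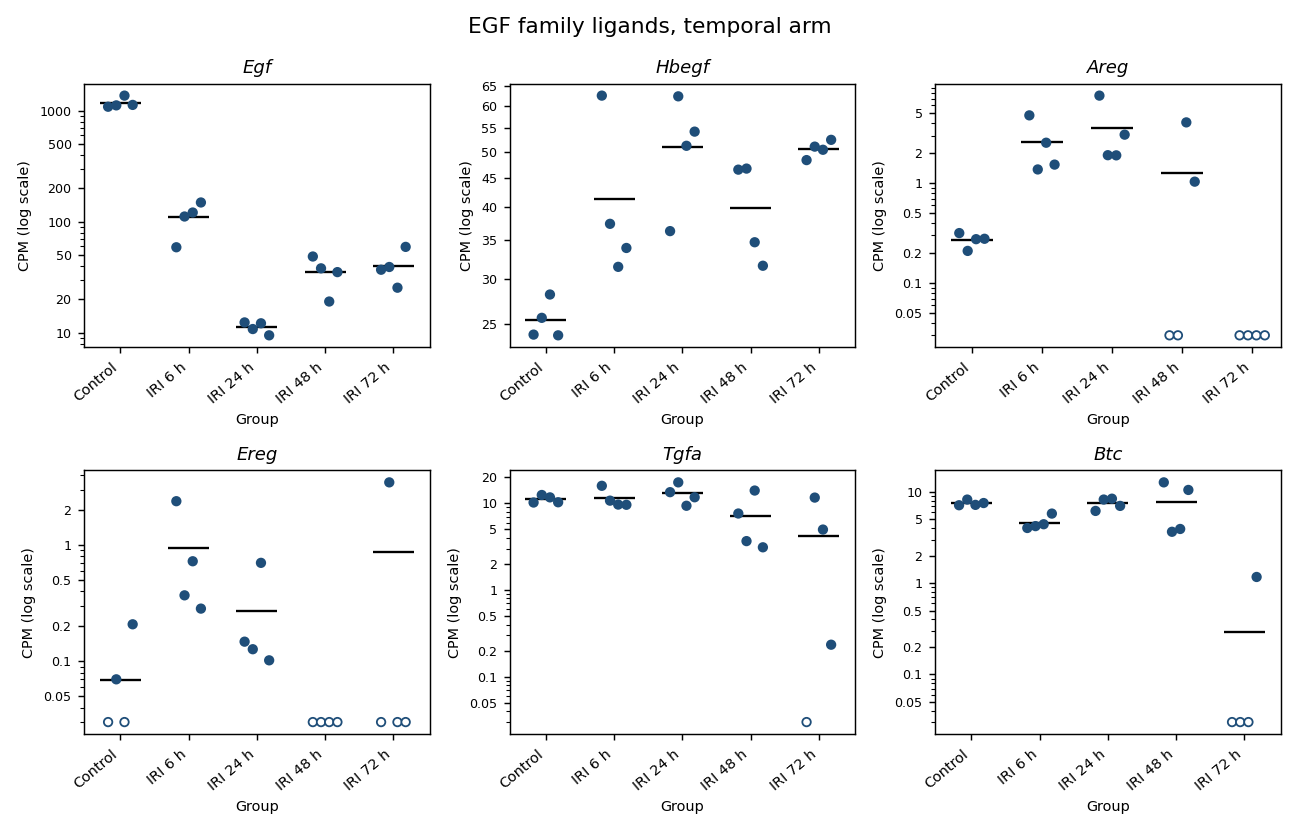
Levels in CPM of the 6 ligands in each temporal library on log axes, with 1 point per library and a bar at the group mean; open circles at the foot are libraries with 0 counts. Egf lies far below Control at every time (9.49 to 12.4 CPM at 24 h), Hbegf lies above Control at every time, and Areg is raised at 6 and 24 h and listed at 0 in all 4 libraries at 72 h.

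Egf fell while most, but not all, markers of the thick ascending limb, the segment that makes it, fell as well. Of 10 markers, 7 were called lower at 6 h, 7 lower and 1 higher at 24 h, 8 lower and 2 higher at 48 h and 7 lower and 1 higher at 72 h. Of all genes tested, 8.52% were called lower and 10.3% higher at 6 h and 20.2% and 21.8% at 24 h. These shares were 26.8% and 26.9% at 48 h and 29.6% and 26.7% at 72 h. One of those called higher was the tight junction gene Cldn19 at 48 h (0.66), which was not the largest rise. The highest log2 fold change of any of the 10 markers was 1.57 in the 48 h group and 2.51 in the 72 h group. The 10 markers summed to between 4485 and 4749 CPM in Control, 1805 and 2786 at 6 h, 561 and 864 at 24 h, 1080 and 1395 at 48 h and 1379 and 1563 at 72 h. Egf had a lower log2 fold change than all 10 of them at 6, 24, 48 and 72 h, a difference that was not itself tested. The nearest at 6 and 24 h was Slc12a1, the salt cotransporter of this segment (−2.34 and −4.19), and at 48 and 72 h Umod, which encodes uromodulin (−3.29 and −3.74). Counted per 1000 reads of these markers, Egf had 238 to 295 counts in Control, 32.7 to 53.6 at 6 h, 12.5 to 22.1 at 24 h, 17.7 to 36.3 at 48 h and 18.5 to 38.5 at 72 h. No range of an injured group reached that of Control.

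The distal convoluted tubule, the other source of Egf, gave a mixed picture. Its 9 markers summed to 1015 to 1145 CPM in Control, 487 to 555 at 6 h and 662 to 740 at 24 h. The sums were 513 to 720 CPM at 48 h and 508 to 583 at 72 h. Beside the shares of all genes given above, 7 markers were called lower at 6 h and 5 lower and 1 higher at 24 h. At 48 h 6 were lower and 1 higher, and at 72 h 7 lower and 1 higher. All 9 of its markers had higher log2 fold changes than Egf at 6 and 24 h and 8 of 9 at 48 and 72 h, where Pvalb, a calcium-binding protein of this segment, was lower (−5.37 at 48 h) or listed at 0 in all libraries (72 h). In bulk kidney, fewer cells of a type and less RNA per cell cannot be told apart. Damaged tubule markers moved with the same libraries, summing to between 1453 and 2109 CPM in Control and between 18240 and 28700 CPM at 24 h, and their part in the loss was not tested.

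**Figure D2:**
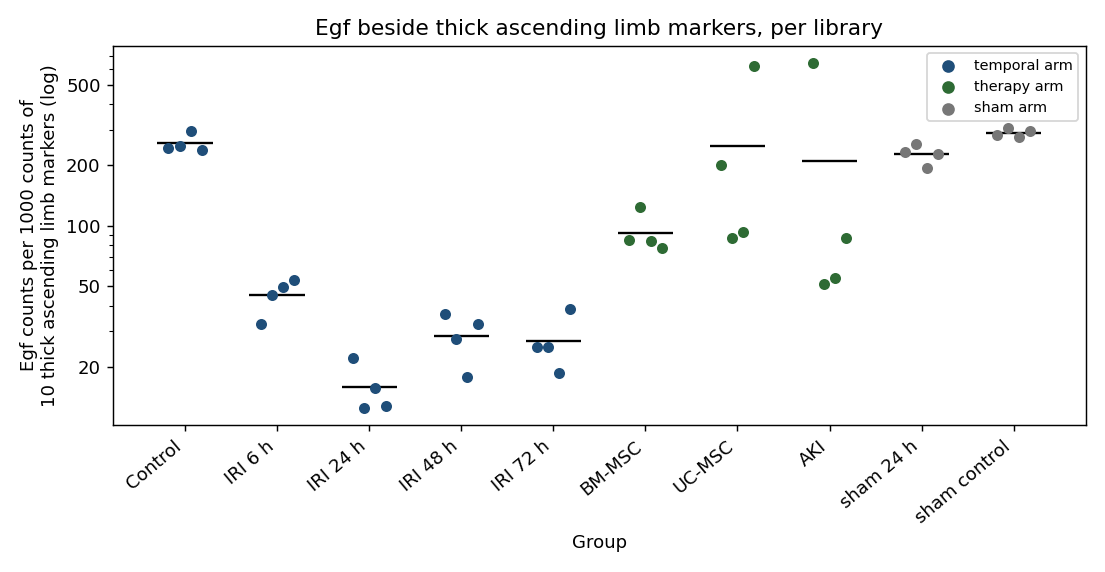
Egf counts per 1000 counts of the 10 thick ascending limb markers in each library on a log axis, for all 3 tables, with a bar at the group mean. IRI libraries of the temporal table lie between 12.5 and 53.6 and Control between 238 and 295. Sham 24 h libraries lie between 193 and 254, below their own sham control libraries (275 to 307). AKI library 1 (642) and UC-MSC library 4 (618) lie above every other library.

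Hbegf, a heparin-binding ligand of EGFR and ERBB4, was modestly higher at all 4 times. It had 24.0, 25.6, 28.1 and 23.9 CPM in Control and 62.6, 37.4, 31.5 and 33.9 CPM at 6 h. At 24 h it had 36.3, 62.4, 51.2 and 54.2 CPM, at 48 h 46.5, 46.7, 34.7 and 31.6 CPM and at 72 h 48.3, 51.0, 50.4 and 52.4 CPM. Every injured library lay above every Control library. The log2 fold change was 0.70 ± 0.21 at 6 h (adjusted p = 0.019), 1.01 ± 0.21 at 24 h (adjusted p = 0.00043), 0.65 ± 0.21 at 48 h (adjusted p = 0.012) and 0.99 ± 0.21 at 72 h (adjusted p = 0.00038). The call at 6 h was lost without IRI 6 h library 1 (0.43, adjusted p = 0.15), without Control library 1 (0.67, adjusted p = 0.057) and without Control library 4 (0.67, adjusted p = 0.058), and the call at 48 h was lost without a count filter (0.55 ± 0.22, adjusted p = 0.055).

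Areg, which encodes amphiregulin, was nearly absent from Control, low but present after injury and listed at 0 by 72 h. It had 0.317, 0.210, 0.275 and 0.278 CPM in Control (at most 5 reads a library), 4.78, 1.37, 2.54 and 1.54 CPM at 6 h and 7.53, 1.91, 1.90 and 3.06 CPM at 24 h. It had 0, 0, 4.06 and 1.04 CPM at 48 h and 0 counts in all 4 libraries at 72 h, where 3 counts over the group would be 0.160 CPM. The 6 and 24 h libraries all lay above Control, the 48 h libraries lay on both sides and the 72 h libraries lay below. The rise passed at 24 h (3.67 ± 1.16, adjusted p = 0.015) and missed the threshold at 6 h (3.18 ± 1.14, adjusted p = 0.058) and 48 h (2.21 ± 1.12, adjusted p = 0.10). Without IRI 24 h library 1, the 24 h value was 2.99 (adjusted p = 0.069), and without IRI 48 h library 3, the 48 h value was 0.31. Areg was called lower at 72 h than at 48 h (adjusted p = 0.047), a comparison in which 2 members were called against 5.65% of all genes (2.03% higher and 3.63% lower). That call rests on 2 libraries at 48 h and was lost in 5 of the 8 fits that left out a library.

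The remaining ligands are Ereg, Tgfa and Btc, which encode epiregulin, transforming growth factor alpha and betacellulin. Ereg had too few counts to be tested over the time course. It lay at 0 to 0.208 CPM in Control, 0.284 to 2.39 at 6 h, 0.102 to 0.704 at 24 h, 0 in all libraries at 48 h and 0 to 3.47 at 72 h, where 17 reads of library 2 were its only counts. Tgfa had 10.2, 12.5, 11.7 and 10.3 CPM in Control and did not pass at any time, with values of 9.61 to 15.9 at 6 h, 9.36 to 17.4 at 24 h, 3.11 to 14.02 at 48 h and 0 to 11.6 CPM at 72 h. At 72 h its log2 fold change was −1.39 ± 0.72 (adjusted p = 0.10), or −2.67 (adjusted p = 0.0046) without library 2.

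Btc was at 7.16, 8.26, 7.22 and 7.57 CPM in Control and fell at 72 h, when it had 0, 0, 0 and 1.17 CPM (−4.73 ± 0.80, adjusted p = 2.6e-05). Its values were 4.03 to 5.80 CPM at 6 h, 6.20 to 8.45 at 24 h and 3.66 to 12.8 at 48 h, none of them called. The 72 h group was lower than the 48 h group too (−4.76, adjusted p = 0.0022), a call lost when only those groups were fitted (−4.66 ± 1.57, adjusted p = 0.41). Most of its 72 h libraries held no count, so these fitted folds depend on how zeros are handled and are no bound.

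Compared per kilobase of exon, so that levels of different genes can be set side by side, the ligand mixture turned over. The length was that of all annotated exons of a gene together, which can differ from that of the transcripts present. Egf averaged 104 CPM per kilobase in Control and Hbegf 5.25, Tgfa 1.72, Btc 1.67, Areg 0.222 and Ereg 0.0169. Egf thus made up 91.5% to 92.8% of the summed ligand level in the Control libraries, 20.1% to 54.4% at 6 h, 4.69% to 6.46% at 24 h, 11.1% to 24.1% at 48 h and 16.8% to 32.1% at 72 h. Hbegf made up 4.44% to 4.89% in Control, 28.8% to 49.8% at 6 h, 41.1% to 64.6% at 24 h, 47.1% to 67.0% at 48 h and 63.3% to 77.5% at 72 h. Areg held up to 33.9% in a 24 h library. From 24 h on, Hbegf led the sum in every library of the temporal table, while its own level in those libraries reached at most 62.4 CPM.

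Among the receptors, Erbb3 fell first and Egfr later, while Erbb2 rose. Erbb3, the partner that couples to PI3 kinase, had 114.5, 127, 133 and 131 CPM in Control and 78.1, 59.4, 66.3 and 60.4 CPM at 6 h. It had 51.4, 50.4, 50.4 and 43.1 CPM at 24 h, 53.0, 63.0, 39.6 and 42.5 CPM at 48 h and 55.3, 40.8, 28.1 and 37.9 CPM at 72 h. Every injured library lay below every Control library. The log2 fold change was −0.94 ± 0.18 at 6 h (adjusted p = 0.00044), −1.37 ± 0.18 at 24 h (adjusted p = 1.4e-06), −1.35 ± 0.18 at 48 h (adjusted p = 1.2e-06) and −1.64 ± 0.18 at 72 h (adjusted p = 7.8e-08).

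Egfr, the main receptor for Egf, Hbegf, Areg and Tgfa, had 78.9, 66.6, 84.0 and 77.2 CPM in Control. Its values were 70.7 to 74.0 CPM at 6 h and 51.6 to 69.7 at 24 h, which overlapped Control and were not called. At 48 h it had 33.1, 10.99, 35.5 and 42.1 CPM and at 72 h 20.9, 24.3, 25.9 and 31.8 CPM, all below Control. The log2 fold change was −1.33 ± 0.25 at 48 h (adjusted p = 9.2e-05), −1.58 ± 0.25 at 72 h (adjusted p = 1.3e-05) and −0.93 at 48 h against 24 h (adjusted p = 0.0088), a call lost when only those groups were fitted (−0.90 ± 0.31, adjusted p = 0.065). The 10 proximal tubule markers moved with it, summing to between 20480 and 24720 CPM in Control and between 935 and 1057 CPM at 72 h, and their part in the fall was not tested.

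Erbb2, which lends its kinase to the other receptors, was the receptor that rose. It had 78.9, 82.2, 82.9 and 84.7 CPM in Control, 68.0 to 81.0 at 6 h and 82.7 to 100.3 at 24 h. At 48 h it had 166, 155, 162 and 134 CPM and at 72 h 148, 127, 184 and 158 CPM, with no overlap with Control. The log2 fold change was 0.91 ± 0.13 at both times (adjusted p = 2.3e-06 at 48 h and 2.1e-06 at 72 h), and 0.72 at 48 h against 24 h (adjusted p = 0.00031). A smaller rise at 24 h against 6 h (0.34, adjusted p = 0.047) was lost in all 8 fits that left out a library. Between 24 and 6 h, 2 members were called against 28.8% of all genes (14.9% higher and 13.9% lower), and between 48 and 24 h 3 members against 21.1% (1500 genes higher and 2017 lower).

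Erbb4, a receptor for neuregulins as well as for Hbegf and Btc, was low and variable. It had 22.7, 14.9, 15.4 and 21.9 CPM in Control, 5.90 to 11.4 at 6 h, 7.75 to 14.4 at 24 h, 5.77 to 25.4 at 48 h and 3.58 to 12.4 at 72 h. The libraries lay below Control at 6, 24 and 72 h, and the call passed at 72 h (−1.47 ± 0.43, adjusted p = 0.0058), not at 6 h (−1.04 ± 0.41, adjusted p = 0.086) or 24 h (−0.93 ± 0.41, adjusted p = 0.076). Per kilobase of exon, Erbb3 (21.02 CPM per kilobase) and Erbb2 (15.8) stood above Egfr (6.77) and Erbb4 (1.52) in Control. At 24 h the order was Erbb2 (18), Erbb3 (8.11), Egfr (5.15) and Erbb4 (0.797). These orders depend on the exon lengths used. In CPM, Egfr (76.7) lay near Erbb2 (82.2) in Control, with lengths of 11326 and 5210 bases.

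**Figure D3:**
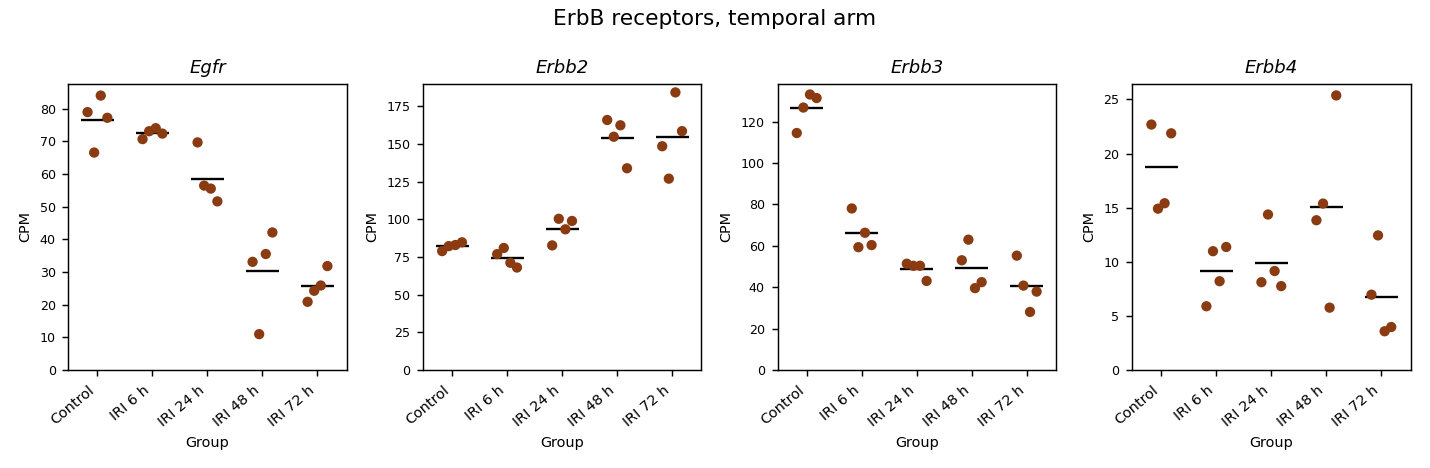
Levels in CPM of the 4 receptors in each temporal library on linear axes that start at 0, with a bar at the group mean. Erbb3 lies below Control at every time, Egfr falls at 48 and 72 h, Erbb2 rises to between 127 and 184 CPM at 48 and 72 h, and Erbb4 is spread widely.

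Genes with the most similar course over the 20 temporal libraries were found by Pearson's r of log2 CPM, as a description across libraries that share their groups. Egf was followed most closely by Tln2 (r = 0.977), Tmco3 (0.972), Gpm6a (0.969) and Ankrd13c (0.968), whose own log2 fold changes at 24 h were smaller, between −3.55 and −2.33. Hbegf was followed by Arl4c (0.933), Capn5 (0.929), Cd24a (0.890) and Rpl6 (0.888). For Areg the closest were Srm (0.884), Tubb4b (0.877), Ap2m1 (0.872) and Psmc3 (0.869), and for Tgfa Sgsh (0.938), Cdpf1 (0.919), Sec22b (0.903) and Elmo2 (0.888).

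Around the members, other genes of the pathway moved in named groups. Of 5 further family ligands, 3 could be tested, and Nrg1, which encodes neuregulin 1, rose at 6 h (1.77 ± 0.26, adjusted p = 2.8e-05) and 24 h (1.75 ± 0.26, adjusted p = 7.4e-06). It had 27.9 to 39.9 CPM at 6 h and 24.2 to 46.2 CPM at 24 h, against 9.57 to 10.9 CPM in Control, and 9.95 to 14.8 CPM at 72 h. At 48 h Nrg1 (0.82 ± 0.26, adjusted p = 0.010) and Nrg2, another neuregulin gene (3.55 ± 1.31, adjusted p = 0.026), were called, with Nrg2 at 0 to 11.5 CPM at 48 h and 0.317 to 0.350 CPM in Control. Of 11 tested genes of ligand processing, 4 rose and 3 fell at 6 h (10.3% and 8.52% of all genes). At 72 h 3 rose and 8 fell (26.7% and 29.6% of all genes), with a median log2 fold change of −1.26, against −0.05 over all genes. Those that rose at 72 h were Rhbdf1 (1.99 ± 0.18) and Rhbdf2 (1.13 ± 0.24), the iRhom partners of the sheddase ADAM17, and the protease gene Adam12 (1.67 ± 0.34). Those that fell included the meprin genes Mep1a (−5.06 ± 0.32) and Mep1b (−2.63 ± 0.34), the protease inhibitor gene Timp3 (−4.12 ± 0.21), the convertase gene Furin (−3.12 ± 0.16) and Adam17 itself (−1.26 ± 0.26).

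Of 12 genes that restrain the receptors, 1 was called higher and 2 lower at 24 h (21.8% and 20.2% of all genes). At 72 h 1 was called higher and 3 lower (26.7% and 29.6% of all genes). The ones called at 24 h were Errfi1, a feedback inhibitor of EGFR (−1.09 ± 0.18, adjusted p = 3.8e-05), Lrig1, another inhibitor (−1.16 ± 0.44, adjusted p = 0.039), and the ubiquitin ligase gene Cblc (0.87 ± 0.20, adjusted p = 0.0012). Of 18 adaptor and Ras-ERK genes, 2 rose and 3 fell at 6 h (10.3% and 8.52% of all genes). The counts were 5 and 8 at 24 h (21.8% and 20.2%) and 6 and 10 at 72 h (26.7% and 29.6%). Nras rose at all 3 of these times (0.74, 1.24 and 1.37).

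Of 17 genes induced by ERK signalling or feeding back on it, 8 rose and none fell at 6 h, where 10.3% of all genes were called higher and 8.52% lower. At 24 h 9 rose and 2 fell (21.8% and 20.2% of all genes), at 48 h 8 rose and 6 fell (26.9% and 26.8%) and at 72 h 8 rose and 4 fell (26.7% and 29.6%). Their median log2 fold change was 0.41 at 6 h (−0.07 over all genes), 0.88 at 24 h (0.05), 0.34 at 48 h (0.01) and −0.06 at 72 h (−0.05). At 24 h the AP-1 gene Fosl1 (6.17 ± 1.63), the ETS factor gene Etv4 (5.33 ± 0.52), the ERK inhibitor gene Spred3 (4.58 ± 0.43), the ERK phosphatase gene Dusp5 (3.35 ± 0.46) and Myc (3.28 ± 0.28) led. Myc had 50.7 to 61.1 CPM at 24 h, against 4.72 to 7.22 CPM in Control. The count of 8 at 6 h was the same without IRI 6 h library 1, where 13.4% of all genes were called (7.46% higher and 5.90% lower).

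In the therapy table every library of the injured groups had less Egf than every Control library, and none of the 3 differences passed when all libraries were fitted together. The BM-MSC libraries had 322, 513, 235 and 190 CPM, the UC-MSC libraries 250, 92.8, 46.8 and 532 CPM, the AKI libraries 969, 39.0, 50.2 and 103 CPM and the Control libraries 1016, 1034, 1253 and 1058 CPM. AKI library 1 came close to the lowest Control library, and the other AKI libraries were the lowest together with UC-MSC libraries 2 and 3. The log2 fold change against Control was −1.79 ± 0.87 in BM-MSC (adjusted p = 0.22), −2.24 ± 0.88 in UC-MSC (adjusted p = 0.056) and −1.91 ± 0.87 in AKI (adjusted p = 0.099). Without AKI library 1 the AKI value was −4.12 ± 0.70 (adjusted p = 0.00018), and without UC-MSC library 4 the UC-MSC value was −3.07 ± 0.97 (adjusted p = 0.021). Fitting BM-MSC and Control alone gave −1.81 ± 0.28 (adjusted p = 0.0011), and fitting UC-MSC and Control alone gave −2.28 ± 0.62 (adjusted p = 0.014). UC-MSC also passed without a count filter (−2.29 ± 0.70, adjusted p = 0.023).

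Against AKI, Egf did not pass in BM-MSC (0.12 ± 0.84, adjusted p = 0.93) or UC-MSC (−0.33 ± 0.84, adjusted p = 0.77). Without AKI library 1 it was higher than AKI in BM-MSC (2.31 ± 0.64, adjusted p = 0.0073) and in UC-MSC (1.82 ± 0.62, adjusted p = 0.022). All 4 BM-MSC libraries lay above AKI libraries 2 to 4, while the UC-MSC libraries overlapped them. With the IRI 6 h libraries of the temporal table in place of AKI, neither passed (1.52, adjusted p = 0.10 in BM-MSC and 1.06, adjusted p = 0.16 in UC-MSC). The thick ascending limb markers summed to 2454 to 4160 CPM in BM-MSC, 504 to 1256 in UC-MSC, 758 to 1511 in AKI and 4152 to 4449 in Control. Per 1000 counts of those markers Egf had 77.5 to 123 counts in BM-MSC, 86.9 to 618 in UC-MSC, 51.4 to 642 in AKI and 238 to 295 in Control.

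AKI library 1 differed from its group in tubule markers as well. Its damaged tubule markers summed to 6186 CPM, against 18940 to 31370 CPM in the other AKI libraries, its distal convoluted tubule markers to 2931 CPM, against 716 to 1137, and its proximal tubule markers to 15180 CPM, against 7971 to 10060. Their part in its Egf level was not tested. Its Hbegf, at 275 CPM, was the highest in the therapy table. UC-MSC library 4, with the most Egf of its group, also differed from the other UC-MSC libraries in tubule markers. Its damaged tubule markers summed to 9846 CPM, against 16280 to 27970 CPM. Its proximal tubule markers summed to 14790 CPM, against 3442 to 5813 CPM, and the part of these markers was not tested.

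**Figure D4:**
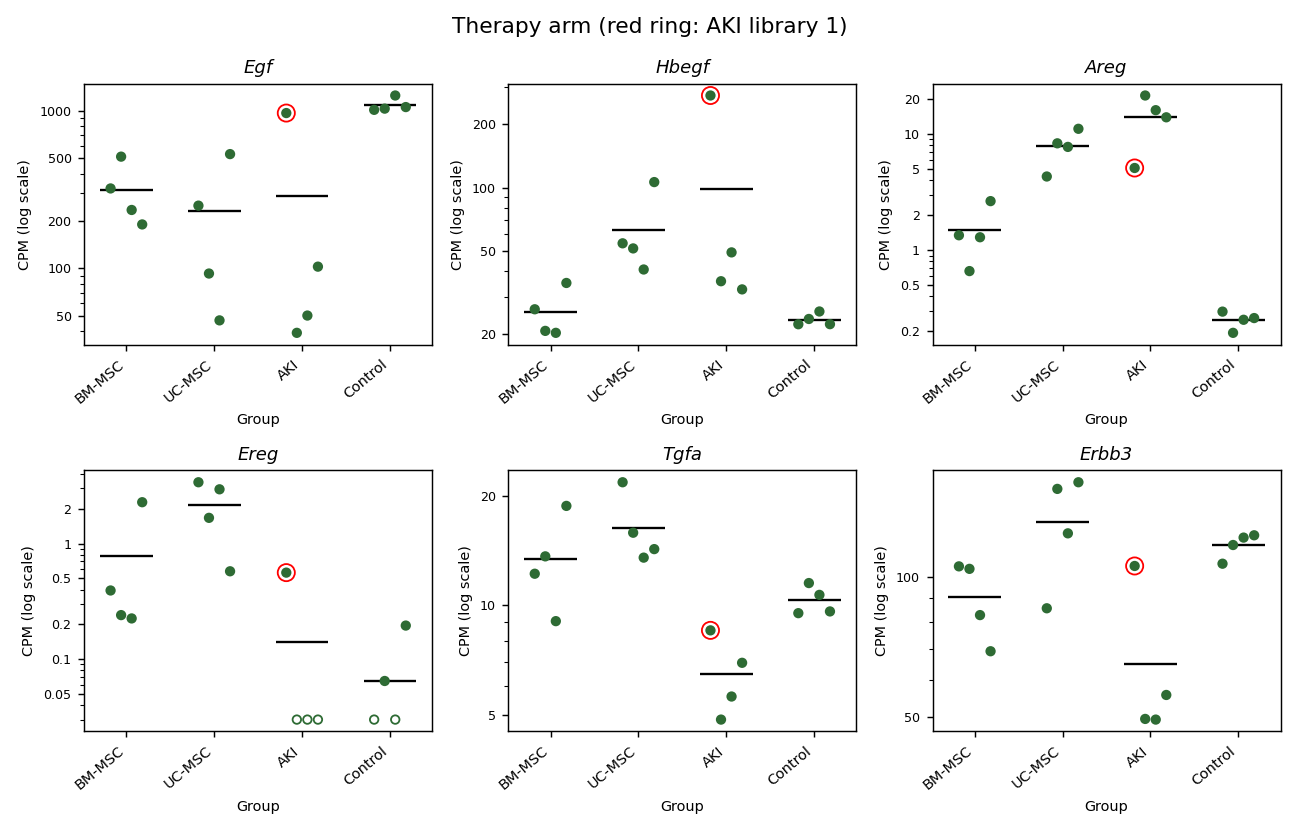
Levels in CPM of Egf, Hbegf, Areg, Ereg, Tgfa and Erbb3 in each therapy library on log axes, with a bar at the group mean, open circles for 0 counts and a red ring round AKI library 1. Egf in that library (969 CPM) lies beside Control, its Hbegf (275 CPM) above every other library, and Areg runs in order of BM-MSC, UC-MSC and AKI libraries 2 to 4, all above Control.

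Areg gave the clearest differences among the therapy groups. It had 1.35, 0.661, 1.29 and 2.65 CPM in BM-MSC, 4.32, 8.34, 7.76 and 11.1 CPM in UC-MSC, 5.11, 21.5, 16.1 and 13.97 CPM in AKI and 0.296, 0.194, 0.252 and 0.260 CPM in Control. Every injured library lay above every Control library, and the BM-MSC libraries lay below all those of UC-MSC and AKI. Against Control it rose in BM-MSC (2.54 ± 0.54, adjusted p = 0.0089), UC-MSC (4.93 ± 0.54, adjusted p = 1.7e-05) and AKI (5.78 ± 0.55, adjusted p = 5.6e-06). Against AKI it was lower in BM-MSC (−3.23 ± 0.45, adjusted p = 0.00011) and did not pass in UC-MSC (−0.85 ± 0.41, adjusted p = 0.11), where leaving out AKI library 1 gave −1.15 ± 0.35 (adjusted p = 0.011). UC-MSC was higher than BM-MSC (2.38 ± 0.44, adjusted p = 0.0025). The damaged tubule markers summed to 8580 to 15510 CPM in BM-MSC, 9846 to 27970 in UC-MSC, 6186 to 31370 in AKI and 1329 to 1969 in Control, and their part in the Areg levels was not tested. With the IRI 6 h libraries in place of AKI, which had less Areg, the BM-MSC value was −0.75 (adjusted p = 0.28) and the UC-MSC value turned to 1.64 ± 0.42 (adjusted p = 0.012).

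Hbegf had 26.4, 20.8, 20.4 and 35.2 CPM in BM-MSC, 54.3, 51.4, 40.8 and 106 CPM in UC-MSC, 275, 35.8, 49.2 and 32.8 CPM in AKI and 22.4, 23.7, 25.7 and 22.4 CPM in Control. The BM-MSC libraries overlapped Control, and those of UC-MSC and AKI lay above it. Against Control the log2 fold change was 0.13 ± 0.54 in BM-MSC (adjusted p = 0.92), 1.42 ± 0.55 in UC-MSC (adjusted p = 0.051) and 2.06 ± 0.55 in AKI (adjusted p = 0.0093), or 0.71 ± 0.26 in AKI without library 1 (adjusted p = 0.036). It was lower in BM-MSC than in AKI (−1.93 ± 0.55, adjusted p = 0.014), a call lost without AKI library 1 (−0.61 ± 0.26, adjusted p = 0.067), when only those groups were fitted (adjusted p = 0.062) and with IRI 6 h in place of AKI (−0.68 ± 0.27, adjusted p = 0.13). UC-MSC against AKI gave −0.64 ± 0.53 (adjusted p = 0.36), and 0.66 ± 0.27 (adjusted p = 0.048) without that library.

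Tgfa was higher than AKI in both MSC groups, and Ereg in UC-MSC, calls that were all lost with the IRI 6 h libraries in place of AKI. Ereg had 0.392, 0.240, 0.225 and 2.28 CPM in BM-MSC, 3.39, 1.67, 2.94 and 0.575 CPM in UC-MSC, 0.560, 0, 0 and 0 CPM in AKI and 0 to 0.195 CPM in Control. The UC-MSC libraries all lay above AKI and Control. Ereg was called in UC-MSC against Control (4.94 ± 1.24, adjusted p = 0.0059) and against AKI (adjusted p = 0.012), and not in BM-MSC against either (adjusted p = 0.094 and 0.099). Most AKI libraries held no Ereg read, so a fitted fold against AKI is no bound. Against IRI 6 h, UC-MSC gave 1.25 ± 0.78 (adjusted p = 0.26). In the therapy table neutrophil markers moved with Ereg from library to library: the 6 markers present summed to 20.1, 13.3, 26.1 and 346 CPM in BM-MSC, 539, 324, 405 and 51.8 CPM in UC-MSC, 32.2, 10.3, 7.21 and 5.42 CPM in AKI and 2.70 to 4.68 CPM in Control. The library with the most Ereg in BM-MSC, UC-MSC and AKI was also the one with the highest sum. In the temporal table this held at 6 h (library 1, 2.39 CPM of Ereg and a sum of 475 CPM), not at 24 or 72 h. At 24 h library 3 had the most Ereg (0.704 CPM) with a sum of 28.0 CPM, and library 2 the highest sum (59.9 CPM). At 72 h library 2 had 3.47 CPM of Ereg and a sum of 24.1 CPM, within a group range of 21.3 to 28.9 CPM. The part of these cells in the Ereg levels was not tested.

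Tgfa had 12.2, 13.6, 9.05 and 18.8 CPM in BM-MSC, 21.8, 15.8, 13.5 and 14.3 CPM in UC-MSC, 8.54, 4.86, 5.62 and 6.96 CPM in AKI and 9.52, 11.5, 10.7 and 9.63 CPM in Control. Both MSC groups lay above AKI without overlap. Against AKI it was higher in BM-MSC (1.05 ± 0.24, adjusted p = 0.0037) and UC-MSC (1.33 ± 0.24, adjusted p = 0.00054), while AKI was lower than Control (−0.67 ± 0.24, adjusted p = 0.039) and UC-MSC higher than Control (0.66 ± 0.24, adjusted p = 0.038). With IRI 6 h in place of AKI the difference was 0.23 ± 0.22 in BM-MSC (adjusted p = 0.52) and 0.52 ± 0.22 in UC-MSC (adjusted p = 0.093). The pair of calls against Control was fragile, lost in 7 and 6 of the 8 fits that left out a library. Btc was not called in any therapy comparison, with 3.45 to 10.1 CPM over all therapy libraries.

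The receptors moved less. Erbb2 had 73.8, 71.7, 79.9 and 67.4 CPM in BM-MSC, 63.8, 49.1, 54.7 and 37.4 CPM in UC-MSC, 52.6, 46.5, 58.9 and 50.2 CPM in AKI and 73.6 to 79.4 CPM in Control. It was lower than Control in UC-MSC (−0.57 ± 0.14, adjusted p = 0.0057) and AKI (−0.55 ± 0.14, adjusted p = 0.0075), and BM-MSC was higher than AKI (0.49 ± 0.14, adjusted p = 0.015), or −0.02 with IRI 6 h in place of AKI. UC-MSC was lower than BM-MSC (−0.51 ± 0.14, adjusted p = 0.019), a call lost without BM-MSC library 3 (adjusted p = 0.058) or UC-MSC library 2 (adjusted p = 0.053). Erbb2 was thus below Control in AKI kidneys, whereas the later IRI groups of the temporal table lay above it.

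Erbb3 had 105.5, 104, 82.8 and 69.2 CPM in BM-MSC, 85.7, 155, 124 and 160.2 CPM in UC-MSC, 106, 49.5, 49.3 and 55.7 CPM in AKI and 107 to 123 CPM in Control. It was lower in AKI than in Control (−0.85 ± 0.25, adjusted p = 0.014) and higher in UC-MSC than in AKI (1.01 ± 0.25, adjusted p = 0.0042, 1.33 ± 0.20 without AKI library 1). The BM-MSC difference from AKI passed only without that library (0.82 ± 0.20, adjusted p = 0.0028, against 0.48 ± 0.24, adjusted p = 0.14). Egfr had 70.9 to 93.2 CPM in BM-MSC, 85.5 to 100.1 in UC-MSC, 50.7 to 119 in AKI and 61.5 to 76.8 in Control, and passed against AKI only when AKI library 1 was left out (0.60 ± 0.13 in BM-MSC, adjusted p = 0.0015, and 0.78 ± 0.13 in UC-MSC, adjusted p = 0.00017). Erbb4 was not called in any therapy comparison.

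Counted over the 10 members, 1 was called in BM-MSC against Control, where 8.92% of all 16639 genes were called (6.56% higher and 2.36% lower). In UC-MSC against Control 4 were called, against 37.1% of all genes (20.4% higher and 16.7% lower), and in AKI against Control 5, against 35.0% (3320 genes higher and 2503 lower). Against AKI, 4 members were called in BM-MSC, against 33.3% of all genes (16.3% higher and 17.1% lower), and 3 in UC-MSC, against 40.4% (20.3% higher and 20.1% lower). UC-MSC and BM-MSC differed in 2, against 20.5% of all genes (10.0% higher and 10.4% lower). Without AKI library 1 the counts involving AKI were 7 for AKI against Control (48.0% of all genes, 24.1% higher and 24.0% lower), 7 for BM-MSC against AKI (47.7%, 25.2% higher and 22.5% lower) and 7 for UC-MSC against AKI (53.1%, 27.4% higher and 25.6% lower). With IRI 6 h in place of AKI, edgeR called 0 members in BM-MSC and 4 in UC-MSC, of which Areg, Egfr and Erbb3 were higher and Erbb2 lower. The comparisons with Control and with AKI share those libraries.

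Of the 17 ERK feedback and target genes, 4 rose and 1 fell in BM-MSC against Control (6.56% of all genes were higher and 2.36% lower). In UC-MSC against Control 11 rose and none fell (20.4% and 16.7% of all genes), and in AKI 10 rose and 1 fell, or 7 and 2 without AKI library 1 (24.1% and 24.0% of all genes there). UC-MSC against BM-MSC gave 10 rises and 1 fall (10.0% and 10.4% of all genes), with a median log2 fold change of 1.12 (0.01 over all genes). The rises were led by Fosl1 (3.6 ± 0.52, adjusted p = 0.00066), Egr1 (2.51 ± 0.73, adjusted p = 0.023) and Ier3 (2.21 ± 0.27, adjusted p = 0.00025). BM-MSC against AKI gave no rise and 7 falls (16.3% and 17.1% of all genes), among them Fosl1 (−2.46 ± 0.50), Phlda1 (−2.04 ± 0.39) and Myc (−1.61 ± 0.32). Without AKI library 1 there were 2 rises and 6 falls (25.2% and 22.5%). UC-MSC against AKI gave 4 rises and 1 fall (20.3% and 20.1% of all genes), or 10 rises and no fall without AKI library 1 (27.4% and 25.6%). Fosl1 had 0.562 to 2.51 CPM in BM-MSC, 11.4 to 20.03 in UC-MSC, 3.48 to 11.6 in AKI and 0 to 0.129 in Control.

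Nrg1 was higher than Control in BM-MSC (1.11 ± 0.25, adjusted p = 0.013), UC-MSC (2.31 ± 0.26, adjusted p = 2.1e-05) and AKI (2.61 ± 0.26, adjusted p = 7.7e-06). It was lower in BM-MSC than in AKI (−1.50 ± 0.25, adjusted p = 0.00040). Nrg4, another neuregulin, was higher than Control in AKI (1.65 ± 0.29, adjusted p = 0.00060) and lower than AKI in BM-MSC (−1.72 ± 0.29, adjusted p = 0.00047) and UC-MSC (−1.49 ± 0.29, adjusted p = 0.00098).

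No member passed after surgery without ischaemia. Of the 8 members tested, 0 were called in sham 24 h against sham control by edgeR and 0 by DESeq2, against 20.8% of all 17781 genes by edgeR (7.70% higher and 13.1% lower), and Egf alone had an unadjusted p under 0.05 (0.040). Egf had 282, 304.5, 223 and 331 CPM in sham 24 h and 368, 361, 332 and 309 CPM in sham control, ranges that overlap (−0.26 ± 0.12, adjusted p = 0.13). Hbegf had 12.7, 10.7, 11.3 and 14 CPM in sham 24 h and 11.5, 9.60, 10.6 and 8.44 CPM in sham control (0.28 ± 0.17, adjusted p = 0.30). The proximal tubule markers summed to 5709 to 6969 CPM in sham 24 h and 9995 to 13340 CPM in sham control, so other kidney genes did move. Areg and Ereg held at most 8 and 18 reads a library in this table and were not tested.

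Whether the change at 24 h after ischaemia exceeded that after surgery was tested as a difference of differences, each group against its own controls. Egf fell by 6.45 ± 0.36 on the log2 scale beyond sham (adjusted p = 2.0e-13) and Erbb3 fell by 1.53 ± 0.22 (adjusted p = 2.5e-06). Hbegf (0.73 ± 0.27, adjusted p = 0.052, or 0.042 with DESeq2) and Areg (3.29 ± 1.75, adjusted p = 0.19) missed the threshold. In all, 2 of the 10 members were called, against 24.4% of all 19596 genes (13.4% higher and 10.9% lower). The tables were made separately, so IRI and sham libraries are compared only through these differences.

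**Figure D5:**
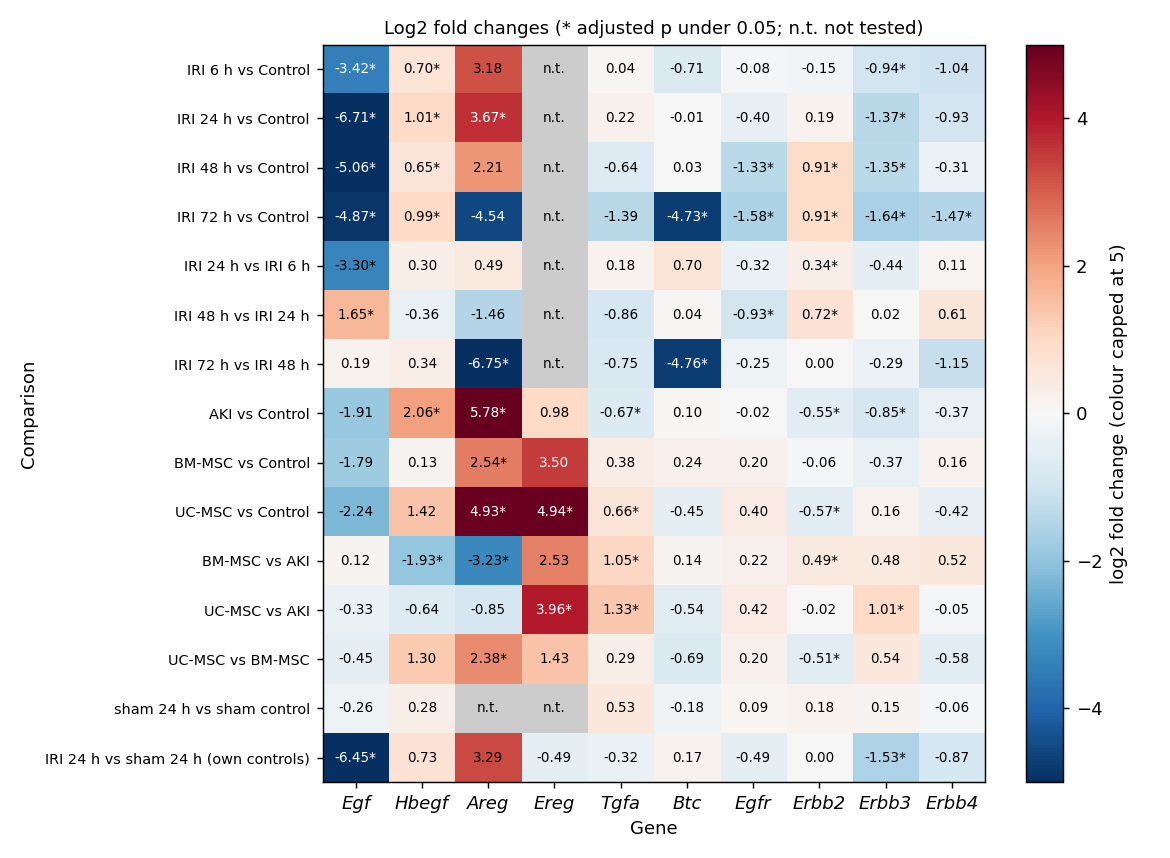
Log2 fold changes of the 10 members (columns) in 15 comparisons (rows), with red for higher and blue for lower in the first-named group and asterisks for adjusted p under 0.05; grey cells were not tested. Egf is blue in every comparison with Control and Areg red in each but that at 72 h, where all libraries held 0 counts and the fitted value is no bound.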

How the data were processed

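The submitters' processing notes name the tools HTSeq and DESeq2 and the build GRCm39. The aligner and the use of strand are not given in the sources used here. The deposited values were whole-number read counts for 40 samples in 44 library columns, and 0 columns were unused. Lines repeated in the temporal and therapy tables in the pattern that joining by gene name leaves, and repeats were reduced to 1 value per name and library (55862 and 55866 names, and 55866 in the sham table). Names whose Control counts differed between tables, or that were otherwise inconsistent, were left out of these fits (81 names, 0 of them members). Totals over all names are given above for the Control, 48 h and 72 h libraries of the temporal table.

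Each table was fitted whole in edgeR 4.0.16 (R 4.3.3) with TMM scaling, filterByExpr and the quasi-likelihood test, and IRI 24 h against sham 24 h in a joint fit. This tested 16659 genes in the temporal, 16639 in the therapy, 17781 in the sham and 19596 in the joint fit, with p-values adjusted over all of them. SEs were derived from fold change and F. The procedure was tested on simulated data. Exon lengths and promoters came from GENCODE M21 and RefSeq on GRCm38, not the build of the files, and all members had a length.

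The members and the gene lists were chosen with earlier results of these data known. All members were described, any gene of 5 pathway lists could be named, and from each of 11 marker lists up to 6 genes with the largest change. Genes of similar course were the 4 with the highest r among tested genes whose log2 CPM averaged 3 or more and that carry no predicted name. Of 159 listed genes 5 were among the names left out. Alternatives were DESeq2 1.42.0, its size factors, no count filter, fits of 2 groups, inconsistent names kept, each library left out, the replicate number as a block and IRI 6 h in place of AKI. List counts without AKI library 1 or IRI 6 h library 1 were added after seeing the data. Plots used matplotlib 3.10.9 in Python 3.11.15.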

Additional observations from a re-analysis of the deposited data

Results flagged for a closer look

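AKI library 1 lay far from the other AKI libraries in 4 members, at 969 CPM for Egf, 275 CPM for Hbegf, 119 CPM for Egfr and 106 CPM for Erbb3. Single libraries also lay far from their group for Egf in Control library 3 (1370 CPM), Erbb3 in IRI 24 h library 4 (43.1 CPM, low) and Ereg in IRI 24 h library 3 (0.704 CPM), IRI 72 h library 2 (3.47 CPM) and BM-MSC library 4 (2.28 CPM). Of 91 member groups of 4 libraries searched, 9 held such a library. The rule marks about 1 in 20 groups by chance only where values are independent and normally spread. AKI library 1 gave 4 of the 9, and the Ereg groups held few reads, so the 9 cannot be set against that rate.

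The change at 24 h differed between ischaemia and sham surgery for Egf (−6.45 on the log2 scale) and Erbb3 (−1.53), each against its own controls. The MSC sources differed, as UC-MSC against BM-MSC, for Areg (2.38) and Erbb2 (−0.51).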

How the results depend on the processing

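Of 47 member differences called, 31 were called in the same direction under every alternative run. Over all alternatives, 623 of 672 runs kept the call and 48 lost it with the sign unchanged. In 1 more run the call was lost and the sign changed, namely Erbb2 in BM-MSC against AKI with IRI 6 h in place of AKI (−0.02). Of 94 differences not called, 49 of 1337 runs gave a call in the same direction and a further 3 gave one in the other. These were Areg in UC-MSC against AKI with IRI 6 h in place (1.64), and Egf (1.82) and Hbegf (0.66) in UC-MSC against AKI without AKI library 1. Over all fits that left out 1 library, these last 2 ranged from −1.16 to 1.82 and from −1.0 to 0.66. The cause of these changes was not tested.

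The number of members called moved by over 1.5 times in some comparisons. DESeq2 gave 5 at 6 h and 2 in BM-MSC against Control. Fitting only the groups compared gave 6 at 6 h, 7 at 24 h, 5 for 24 h against 6 h, 0 for 72 h against 48 h and 2 in BM-MSC against Control. Without a count filter 24 h against 6 h gave 1. IRI 6 h in place of AKI gave 0 in BM-MSC. Leaving out 1 library gave 1 to 2 for 24 h against 6 h, 1 to 2 for 72 h against 48 h, 4 to 7 in BM-MSC and 3 to 7 in UC-MSC against AKI, and 1 to 4 in UC-MSC against BM-MSC. With the replicate number as a block, 1 member was called for 24 h against 6 h (Egf) and 1 for 72 h against 48 h (Btc), and no other count of members moved by over 1.5 times. Under it Egf passed against Control in UC-MSC (−2.7, adjusted p = 0.033) and AKI (−2.9, adjusted p = 0.033). Same-numbered libraries of the temporal table did not deviate together (r of −0.260 to 0.151, over 0.1 in 2 of 40 pairs). In the therapy table the pairs were mixed (r of −0.520 to 0.439, over 0.1 in 6 of 24 pairs). No paired analysis was possible because the sham control columns carry no numbers, in the sham comparisons.

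DESeq2's size factors moved the median of all genes by 0.104 at 48 h, 0.132 at 72 h and 0.10 at 48 h against 24 h, where the share of called genes that were higher was 54.4% in place of 42.6%. Libraries at 48 and 72 h held 4656775 to 7073559 counts over the names kept, and 7775204 to 10013035 over all names. Scaled to the names kept, 0 reads of a gene over the 4 libraries allow up to 0.119 CPM at 48 h and 0.160 CPM at 72 h.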
